A study of Homo sapiens with 2 samples.

Results

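The S100 genes encode small calcium-binding proteins, and 10 of them (S100A1, S100A2, S100A4, S100A6, S100A10, S100A11, S100A13, S100A14, S100A16 and S100P) were followed here in a single-cell long-read library of a pool of 3 ovarian cancer cell lines. They were chosen by gene name from the authors' table of transcript positions, which lists 32 transcripts for them. Of these, 31 had a value above 0. The 10 genes are among 57110 gene entries, 17806 of which had a count. The pool held IGROV1, SK-OV-3 and COV504, established lines grown from human ovarian tumours, with no treatment given in the labels. Cells were detached with trypsin and mixed in equal parts. The study compared an Illumina and a PromethION nanopore library of this pool, 1 of each, to benchmark transcript quantification. Both libraries list the same 2462 cell barcodes. The values here come from the PromethION library, so no value has a replicate and no test between groups was possible.

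S100 proteins pair up through EF-hand helices, change shape on binding calcium and then grip partner proteins, among them annexins, non-muscle myosin and ezrin. S100A10 is the exception that keeps the gripping shape without calcium. In carcinoma cells the family is best known through S100A4, tied to cell movement, and through S100A6, S100A2 and S100P, which are studied as tumour markers. Most family genes sit side by side on the long arm of chromosome 1, and a typical gene has a noncoding first exon followed by a pair of coding exons.

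Cell barcodes, the tags that stand for single cells, were assigned to a line where they had at least 1000 counts and 1 set of marker genes held at least 75% of the counts of all 3 sets. ERBB2, NNMT, TSPAN1 and DHRS2 gave 648 SK-OV-3-like barcodes with 3442383 counts. RARRES2 and TMEM100 gave 473 RARRES2-high barcodes with 3377992 counts. FOLR1, CLDN3, DEFB1 and CXCL14 gave 765 FOLR1-high barcodes with 4514999 counts. Median depth was 4953, 6262 and 5289 counts per barcode in that order. A further 243 barcodes fell to no line and 333 had too few counts. Genes next to ERBB2 that the rule did not use were also highest in the SK-OV-3-like barcodes (MIEN1 at 528 CPM, which are counts of the gene scaled to the same total in every line, against 143 and 103; STARD3 at 214 against 22.2 and 13.3), and CDKN2A had 1 count there, 0 in RARRES2-high and 88 in FOLR1-high barcodes, so it does not set the first 2 apart. Which of the other groups is IGROV1 and which is COV504 cannot be told from these markers, so they keep the names of their leading genes. Leukocyte markers had 0 or 1 count in each group. CDH5, an endothelial marker, reached 30.5 CPM in the RARRES2-high barcodes, where PECAM1 was at 0. The fibroblast marker COL1A1 reached 95.6 CPM in the SK-OV-3-like barcodes, where DCN was at 0. Between 42.1% and 62.6% of the barcodes of a line were assigned on fewer than 10 marker counts. Mitochondrial and ribosomal protein genes together held 14.8% of the counts in SK-OV-3-like, 18.1% in RARRES2-high and 33.6% in FOLR1-high barcodes, which lowers the CPM of every other gene in the last group. Intervals are 95% intervals and cover counting error only. Values are shares of reads, not scaled for transcript length, so levels are compared between lines and not between genes.

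Start-region windows of RefSeq (build GRCh38.p14; from 250 bases before to 50 bases after each annotated start, 5′ to 3′ on the gene's minus strand) are shown for 3 genes on which the results turn. S100A6 (chr1:153535942-153536241) and S100A4 (chr1:153545757-153546056) are shown because these genes, close together with S100A5 between them, had different patterns over the lines. A pair of S100A13 windows, the upstream one at chr1:153627456-153627755 and the downstream one at chr1:153627190-153627489, is shown because 2 transcripts of that gene with different noncoding exons took different shares in each line. Capitals mark TATAAA, the core of a TATA box, searched on both strands. Only these exact letters were searched, so near matches, such as tataag in the S100A6 window, are not marked.
S100A6: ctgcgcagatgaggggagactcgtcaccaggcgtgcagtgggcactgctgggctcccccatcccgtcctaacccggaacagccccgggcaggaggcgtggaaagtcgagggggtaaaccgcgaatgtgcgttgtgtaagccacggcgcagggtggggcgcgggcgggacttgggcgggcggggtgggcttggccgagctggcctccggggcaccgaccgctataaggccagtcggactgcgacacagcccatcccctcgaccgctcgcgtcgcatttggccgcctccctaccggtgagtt
S100A4: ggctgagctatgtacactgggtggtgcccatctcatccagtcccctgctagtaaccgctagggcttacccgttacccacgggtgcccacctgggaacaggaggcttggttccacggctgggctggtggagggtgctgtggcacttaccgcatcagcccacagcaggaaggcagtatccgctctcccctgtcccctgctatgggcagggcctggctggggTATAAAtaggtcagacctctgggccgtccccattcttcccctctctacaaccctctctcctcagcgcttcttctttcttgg
S100A13 upstream: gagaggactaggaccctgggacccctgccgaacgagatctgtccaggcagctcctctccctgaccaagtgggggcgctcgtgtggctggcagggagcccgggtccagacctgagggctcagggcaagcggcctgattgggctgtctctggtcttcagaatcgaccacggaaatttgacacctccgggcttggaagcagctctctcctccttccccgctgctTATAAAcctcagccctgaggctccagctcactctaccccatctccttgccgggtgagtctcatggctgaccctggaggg
S100A13 downstream: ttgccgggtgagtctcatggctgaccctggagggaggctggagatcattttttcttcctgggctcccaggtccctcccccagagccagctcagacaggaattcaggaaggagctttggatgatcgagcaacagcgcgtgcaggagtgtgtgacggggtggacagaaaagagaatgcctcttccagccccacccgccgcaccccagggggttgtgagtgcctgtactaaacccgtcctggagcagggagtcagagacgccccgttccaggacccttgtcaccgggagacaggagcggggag
All 10 genes had a window in the RefSeq table, 14 windows in all. TATAAA was found in 3 of them (S100A4 at 31 bases before the start, the upstream S100A13 window at 29 and S100P at 28) and in 11.5% of all 35116 windows. GGGCGG, a GC box, was found in 5 of the 14, including S100A6 with 3 matches, and in 45.0% of all windows. These are matches of letters and no measure of use.

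The family took a different share of the RNA counts in each line. Its 10 genes held 2.93% of all counts in the SK-OV-3-like barcodes (interval 2.91 to 2.95%), 1.89% in the RARRES2-high (1.87 to 1.90%) and 0.805% in the FOLR1-high barcodes (0.797 to 0.813%). Among single barcodes the median share was 2.83%, 1.87% and 0.712%, with the range from the 5th to the 95th percentile at 1.53 to 4.86%, 0.968 to 3.30% and 0.221 to 1.54%. The ranges overlapped between neighbouring lines, and that of the SK-OV-3-like barcodes met that of the FOLR1-high barcodes only at its edge. Counted without mitochondrial and ribosomal protein genes, the share was 3.44%, 2.30% and 1.21%, in the same order. S100A6 made up 50.2% of the family counts in both SK-OV-3-like and RARRES2-high barcodes and 21.5% in FOLR1-high barcodes.

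**Figure D1:**
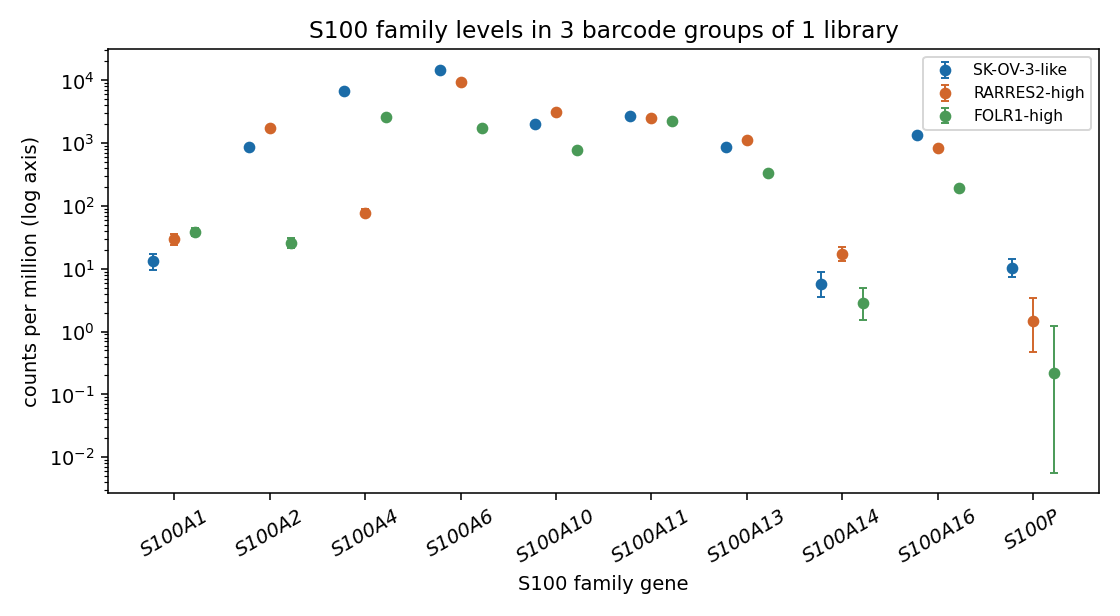
Level of each of the 10 S100 genes in CPM (log axis) in 3 groups of barcodes of 1 library, with exact 95% Poisson intervals. S100A4 sits at 78.4 in the RARRES2-high barcodes against 6722 and 2649 in the others, S100A2 at 26.1 in the FOLR1-high barcodes against 876 and 1716, and S100A11 between 2294 and 2687 in all 3.

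A gene was called higher in a line where the ratio of CPM plus 10 reached 2, among the 10192 gene entries with at least 50 counts over the lines. S100P, with 42 counts, was not tested, which left 9 members. Between SK-OV-3-like and RARRES2-high barcodes 1 member was higher in the former, against 10.1% of all gene entries tested, and 0 in the latter, against 7.67%. Under 5 alternatives 1 or 2 members were also higher in RARRES2-high barcodes: S100A1 and S100A2 with a marker share of 90% and with at least 10 marker counts per barcode, S100A2 when scaled without mitochondrial and ribosomal protein genes and as a mean of single barcodes, and S100A1 and S100A14 with a pseudocount of 1 CPM. Their plain ratios of RARRES2-high to SK-OV-3-like were 2.29 (S100A1), 1.96 (S100A2) and 3.01 (S100A14). Between SK-OV-3-like and FOLR1-high barcodes 6 members were higher in the former (background 12.7%) and 1 in the latter (background 4.95%). Between RARRES2-high and FOLR1-high barcodes 6 were higher in the former (background 12.5%) and 1 in the latter (background 6.44%). The median log2 ratio of the 9 members was -0.34, 1.37 and 1.72 in these pairs, beside 0.15, 0.29 and 0.12 over all gene entries tested. Scaling without mitochondrial and ribosomal protein genes moved the median of all genes by -0.22 between SK-OV-3-like and FOLR1-high and by -0.19 between RARRES2-high and FOLR1-high barcodes. It also moved the share of calls that were higher in the first line from 71.9% to 52.2% and from 66.0% to 50.5% in these pairs.

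S100A4, the member that binds non-muscle myosin and is tied to cell movement (ENSG00000196154, chr1:153543613-153550136), was far lower in 1 line than in the others. It had 6722 CPM in SK-OV-3-like (interval 6636 to 6810), 78.4 in RARRES2-high (69.3 to 88.5) and 2649 in FOLR1-high barcodes (2601 to 2697). The level was 85.7-fold higher in SK-OV-3-like than in RARRES2-high barcodes (75.9 to 97.1) and 33.8-fold higher in FOLR1-high than in RARRES2-high barcodes (29.9 to 38.3). SK-OV-3-like barcodes were 2.54-fold above FOLR1-high barcodes (2.48 to 2.59), a log2 ratio of 1.34 that fell to 0.98, just under the limit, when scaled without mitochondrial and ribosomal protein genes. In the middle of the distribution, SK-OV-3-like barcodes ran from 3733 to 9050 CPM (25th to 75th percentile) and FOLR1-high barcodes from 1186 to 3887, with a small overlap.

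The S100A4 counts of the RARRES2-high line came from few barcodes. Of its 473 barcodes, 362 had 0 counts, 71 had 1, 21 had 2, 16 had 3 to 9 and 3 had 10 or more, with a highest value of 47. The 10 highest barcodes held 47.2% of the 265 counts, and without them, a setting chosen after seeing the data, the level was 42.7 CPM. Without barcodes called as doublets by Scrublet, the S100A4 log2 ratio moved from 6.25 to 6.52 for SK-OV-3-like over RARRES2-high barcodes. For RARRES2-high over FOLR1-high barcodes it moved from -4.91 to -5.17. The part of doublets was not tested further. RNA set free into the cell suspension can also add S100A4 counts. Beside them, the 8 markers of the other lines ran from 0 CPM (DHRS2) to 78.7 (CLDN3), with NNMT at 56.0, ERBB2 at 19.5 and FOLR1 at 8.88, in the same barcodes, which the rule had chosen for low marker counts, and the part of free RNA was not tested.

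S100A6, also called calcyclin (ENSG00000197956, chr1:153534599-153536244), lies 7.37 kb from S100A4 and did not share its gap. It had 14705 CPM in SK-OV-3-like (interval 14577 to 14833), 9478 in RARRES2-high (9374 to 9582) and 1727 in FOLR1-high barcodes (1689 to 1765). The ratio to FOLR1-high barcodes was 8.52 for SK-OV-3-like (8.32 to 8.72) and 5.49 for RARRES2-high barcodes (5.35 to 5.63). The ratio between the latter groups was 1.55 (1.53 to 1.57). Even the 5th percentile of the SK-OV-3-like barcodes, 6565 CPM, lay above the 95th percentile of the FOLR1-high barcodes, 4028 CPM, whereas RARRES2-high barcodes (3668 to 20042 CPM) overlapped both. CACYBP, the calcyclin-binding partner, was not called in any pair (203, 306 and 186 CPM).

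S100A2, known from basal epithelial cells (ENSG00000196754, chr1:153561108-153567890), was low in the FOLR1-high line and not in the RARRES2-high line. It had 876 CPM in SK-OV-3-like (interval 845 to 908), 1716 in RARRES2-high (1672 to 1761) and 26.1 in FOLR1-high barcodes (21.6 to 31.3). The ratio to FOLR1-high barcodes was 33.5 (27.9 to 40.7) for SK-OV-3-like and 65.7 (54.7 to 79.5) for RARRES2-high barcodes. RARRES2-high exceeded SK-OV-3-like barcodes 1.96-fold (1.87 to 2.05), just under the limit. Within the SK-OV-3-like line the gene was uneven. Of 648 barcodes, 163 had 0 counts while 81 had 10 or more, and the variance of counts thinned to 2000 per barcode was 5.65 times the mean, against 2.51 in the RARRES2-high line. In the FOLR1-high line 698 of 765 barcodes had 0 counts, and 10 barcodes held 46.6% of the 118 counts.

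**Figure D2:**
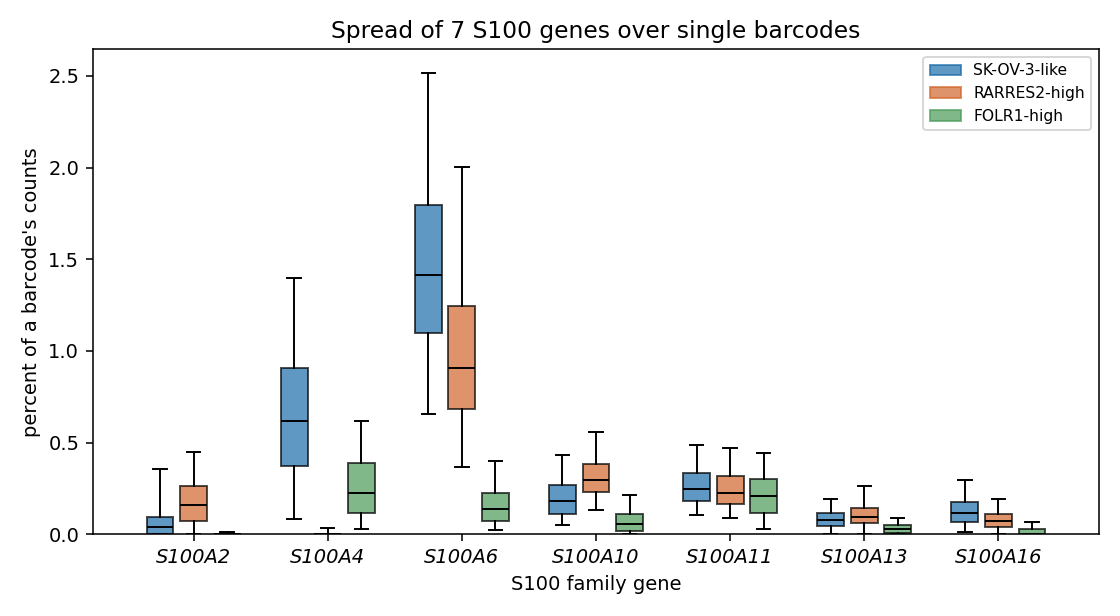
Share of single barcodes' counts taken by 7 S100 genes, in percent of a barcode's counts, for 3 groups of barcodes; boxes run from the 25th to the 75th percentile with the median as a line, and whiskers from the 5th to the 95th percentile. The S100A6 box of the SK-OV-3-like barcodes lies well above that of the FOLR1-high barcodes, the S100A4 box is at 0 in the RARRES2-high barcodes, and the S100A11 boxes overlap in all 3.

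S100A10 and S100A11 work with annexins, S100A10 with ANXA2 at membranes and S100A11 with ANXA1, and behaved differently. S100A10 (ENSG00000197747, chr1:151982915-151994390) had 2053 CPM in SK-OV-3-like (2005 to 2101), 3083 in RARRES2-high (3024 to 3143) and 787 in FOLR1-high barcodes (761 to 813). FOLR1-high barcodes were the lowest, below SK-OV-3-like by 2.61-fold (2.50 to 2.72) and below RARRES2-high by 3.92-fold (3.77 to 4.07). Scaled without mitochondrial and ribosomal protein genes, the S100A10 log2 ratio of SK-OV-3-like to FOLR1-high barcodes fell from 1.37 to 1.02, just past the limit. That of RARRES2-high to FOLR1-high barcodes fell from 1.96 to 1.66. ANXA2 stood in the same order, at 1534, 2621 and 615 CPM. S100A11 (ENSG00000163191, chr1:152032506-152037035), 38.1 kb from S100A10, had 2687 (2632 to 2742), 2521 (2467 to 2575) and 2294 CPM (2250 to 2338). It was not called in any pair, and its ratios were 1.07 for SK-OV-3-like to RARRES2-high, 1.17 for SK-OV-3-like to FOLR1-high and 1.10 for RARRES2-high to FOLR1-high barcodes. Scaled without mitochondrial and ribosomal protein genes the FOLR1-high line was the highest instead (scaled levels of 3155, 3077 and 3457), so no order of the lines holds for S100A11. ANXA1 had 1265, 892 and 318 CPM.

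S100A16 and S100A13 were lowest in the FOLR1-high line. S100A16 (ENSG00000188643, chr1:153606886-153613083) had 1335 CPM in SK-OV-3-like (1297 to 1375), 828 in RARRES2-high (798 to 860) and 192 in FOLR1-high barcodes (179 to 205). SK-OV-3-like barcodes thus exceeded FOLR1-high barcodes 6.96-fold (6.47 to 7.495) and RARRES2-high barcodes exceeded them 4.32-fold (interval up to 4.67). S100A13, which helps to export growth factors that lack a signal peptide (ENSG00000189171, chr1:153618799-153628239), had 883 (851 to 914), 1122 (1086 to 1158) and 334 CPM (317 to 351). Its ratio to FOLR1-high barcodes was 2.64 (2.48 to 2.81) in SK-OV-3-like and 3.36 (3.16 to 3.57) in RARRES2-high barcodes. Scaled without mitochondrial and ribosomal protein genes, the S100A13 log2 ratio of SK-OV-3-like to FOLR1-high barcodes fell from 1.38 to 1.03, just past the limit. That of RARRES2-high to FOLR1-high barcodes fell from 1.72 to 1.43. The 25th to 75th percentiles of S100A13 in SK-OV-3-like (479 to 1178 CPM) and FOLR1-high barcodes (56.4 to 487 CPM) met only at their edges.

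The 3 remaining members were rare in every line. S100A1, known from heart and skeletal muscle (ENSG00000160678, chr1:153627926-153632037), had 13.1 CPM in SK-OV-3-like (9.54 to 17.5), 29.9 in RARRES2-high (24.4 to 36.3) and 38.3 in FOLR1-high barcodes (32.8 to 44.5). The last pair of intervals overlapped, and FOLR1-high barcodes were 2.93-fold above SK-OV-3-like barcodes (2.10 to 4.17), which made S100A1 the single member called higher in the FOLR1-high than in the SK-OV-3-like line; as a mean of single barcodes it was not called. S100A1 overlaps the start of S100A13 on the opposite strand, and no source used here says whether the counting used strand, so reads from that overlap are uncertain. S100A14 (ENSG00000189334, chr1:153614255-153616986) had 5.81 (3.55 to 8.97), 17.5 (13.3 to 22.5) and 2.88 CPM (1.53 to 4.92), and was 6.07-fold higher in RARRES2-high than in FOLR1-high barcodes (3.29 to 12.1), with the values in SK-OV-3-like and FOLR1-high barcodes overlapping. With a marker share of 90%, and with at least 10 marker counts per barcode, its log2 ratio between these lines was 0.997 and 0.92, under the limit, against 1.09. Its neighbours S100A16 and S100A13 lie 1.17 kb and 1.81 kb away. S100P, the one member on chromosome 4 (ENSG00000163993, chr4:6693069-6697169), had 36 counts in SK-OV-3-like, 5 in RARRES2-high and 1 in FOLR1-high barcodes, or 10.5 (7.33 to 14.5), 1.48 (0.481 to 3.45) and 0.221 CPM. The SK-OV-3-like interval lay above the others.

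**Figure D3:**
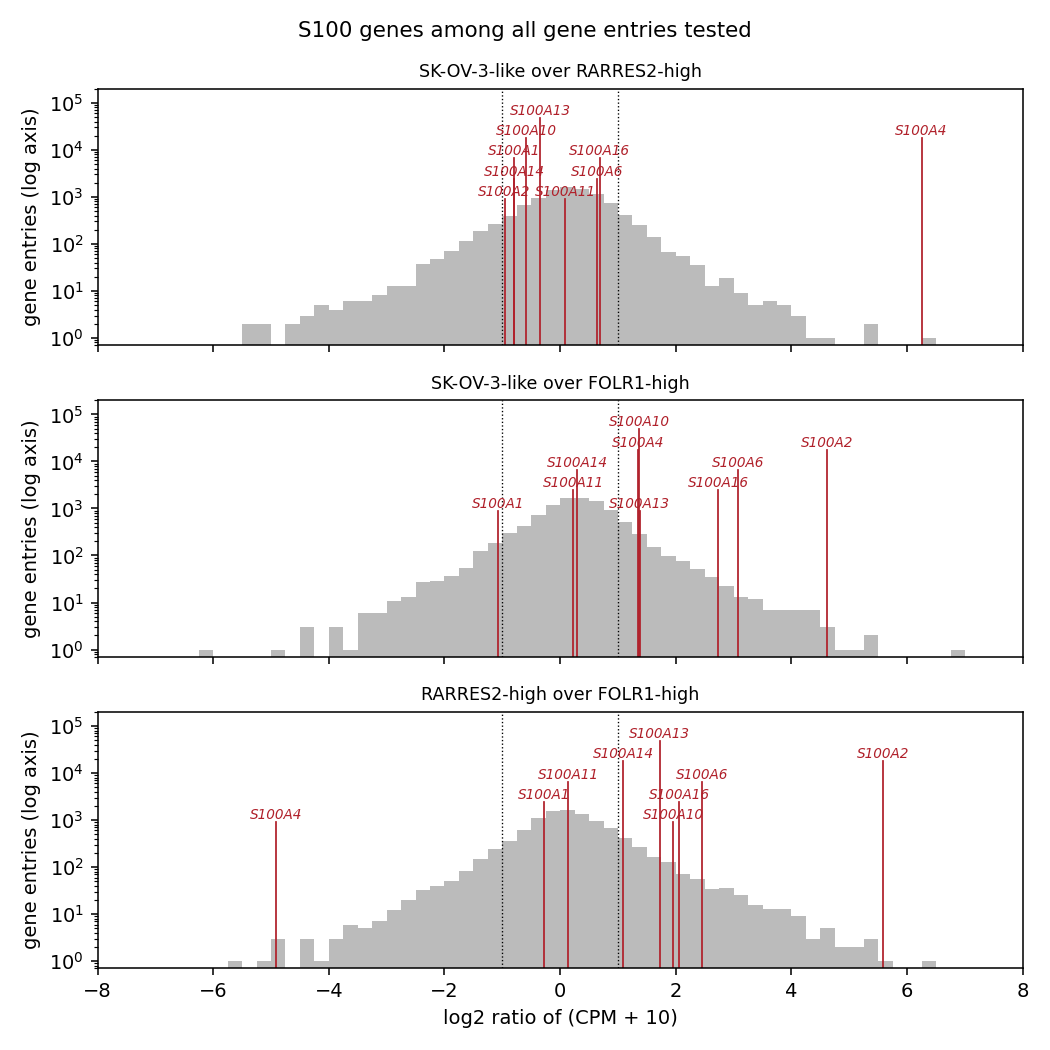
Histograms of log2 ratios of CPM plus 10 between pairs of barcode groups over all 10192 gene entries tested (log count axis), with the 9 tested S100 genes as red lines and dotted lines at the 2-fold limits. S100A4 lies far out at 6.25 (SK-OV-3-like over RARRES2-high) and -4.91 (RARRES2-high over FOLR1-high), S100A2 at 4.62 and 5.58 against FOLR1-high barcodes, and S100A11 near 0 in all 3.

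Counts spread over barcodes were compared after each barcode was thinned to 2000 counts, which left 606 SK-OV-3-like, 443 RARRES2-high and 733 FOLR1-high barcodes and left out 42, 30 and 32. Of the 10 members, 7, 6 and 4 had a count in at least 50% of the barcodes. S100A6 had one in 99.8%, 100% and 86.8% (unthinned 99.8%, 100% and 96.9%). S100A11 had one in 99.2%, 97.1% and 91.4% (unthinned 99.7%, 99.6% and 96.5%). S100A4 was found in 97.5% of SK-OV-3-like and 93.2% of FOLR1-high barcodes but in 8.80% of RARRES2-high barcodes (interval 6.34 to 11.8%; unthinned 98.3%, 97.0% and 23.5%). S100A2 was found in 53.8%, 86.5% and 3.14% (unthinned 74.8%, 92.4% and 8.76%), and S100A16 in 87.3%, 77.2% and 26.9% (unthinned 95.4%, 92.2% and 47.2%). S100P had a count in 0 of the 733 thinned FOLR1-high barcodes, which allows up to 0.502% of barcodes with a count at that depth by the exact interval; unthinned, 1 of 765 had a count. S100A4 and S100A2 thus had their lowest shares in different lines.

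Long reads also show which transcript of a gene was made. Members with at least 2 listed transcripts and 50 counts in both lines numbered 6, 6 and 7 in the 3 pairs. S100A13 was the 1 member whose transcript share differed by at least 20 points in each pair, against 2.47%, 2.23% and 3.28% of all genes compared. The median largest difference of the members was 1.44, 5.52 and 2.49 points, beside 3.20, 3.18 and 3.49 over all genes compared. The shares of S100A10 and S100A16, each with a dominant form, moved little between lines. In S100A10, ENST00000368811 held 99.9% to 100% of the counts in every line, and in S100A16, ENST00000368706 held 99.3%, 98.2% and 97.2%. S100A11 and S100P have 1 listed transcript each.

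The S100A13 counts fell almost wholly on 2 transcripts with the same coding exons and different noncoding exons before them. ENST00000440685 has noncoding exons at chr1:153628121-153628239 and chr1:153627483-153627598, and ENST00000392623 has 1 at chr1:153627139-153627268. The RefSeq start of the upstream window printed above (153627505) lies in the second exon of ENST00000440685, and that of the downstream window (153627239) in the first exon of ENST00000392623. In which exon of ENST00000440685 the reads began cannot be told from the table. ENST00000440685 held 48.9% of 3038 counts in SK-OV-3-like (47.1 to 50.7%), 28.02% of 3789 in RARRES2-high (26.6 to 29.5%) and 68.5% of 1508 in FOLR1-high barcodes (66.0 to 70.8%). ENST00000392623 held 50.3%, 70.5% and 30.2%. The leading form thus was ENST00000392623 in RARRES2-high and ENST00000440685 in FOLR1-high barcodes, 40.4 points apart, and SK-OV-3-like barcodes lay between with near-equal shares. With a marker share of 90% required, the difference between SK-OV-3-like and RARRES2-high barcodes was 19.4 points, just under the limit, against 20.9. SK-OV-3-like minus FOLR1-high barcodes was 20.2 points in ENST00000392623, just past the limit, and -19.6 points in ENST00000440685, just short of it. The deposited entry joins S100A13 with AL162258.1, whose own transcript had no counts.

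Read as levels, most of the S100A13 difference lay in 1 of the forms. ENST00000440685 had 431 CPM in SK-OV-3-like, 314 in RARRES2-high and 229 in FOLR1-high barcodes, so that the highest was 1.89-fold above the lowest (1.74 to 2.05). ENST00000392623 had 444, 791 and 101 CPM, and RARRES2-high barcodes were 7.85-fold above FOLR1-high barcodes (7.10 to 8.69) and 1.78-fold above SK-OV-3-like barcodes (1.67 to 1.90).

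The share also moved with the number of S100A13 counts in a barcode. Among FOLR1-high barcodes ENST00000440685 held 80.0% in those with 1 to 2 counts (76.3 to 83.5%), 68.5% in those with 3 to 5 (65.0 to 71.9%) and 49.2% in those with 6 or more (43.5 to 55.2%). RARRES2-high barcodes gave 43.3%, 40.2% and 25.7% in the same order, and SK-OV-3-like barcodes 51.8%, 48.1% and 48.9%. At 6 or more counts FOLR1-high and SK-OV-3-like barcodes overlapped, while RARRES2-high barcodes (24.1 to 27.2%) lay below both; at 1 to 2 and at 3 to 5 counts FOLR1-high barcodes lay above both others. Only 41 FOLR1-high barcodes had 6 or more counts, against 205 SK-OV-3-like and 256 RARRES2-high barcodes. Counts per barcode follow depth and level together, and their part in the difference between lines was not tested further.

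**Figure D4:**
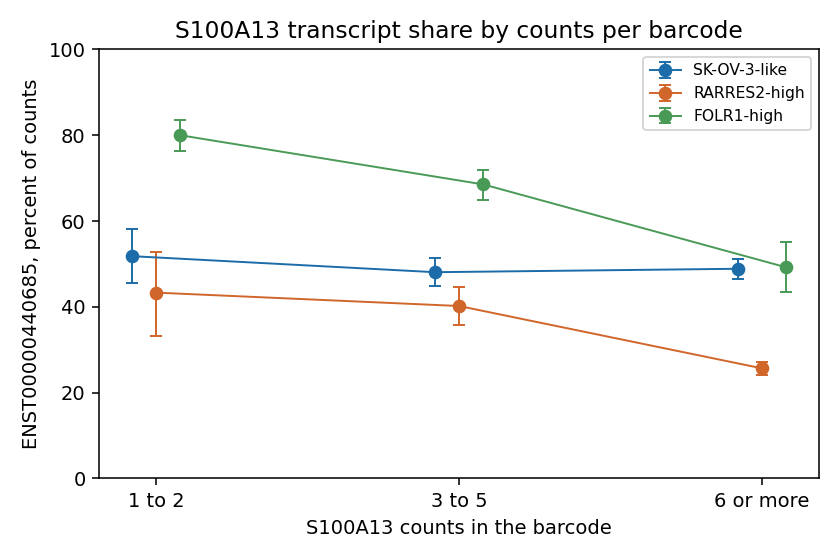
Share of S100A13 counts assigned to ENST00000440685, in percent, by the number of S100A13 counts in the barcode, for 3 groups of barcodes, with exact 95% intervals. FOLR1-high barcodes fall from 80.0% to 49.2%, RARRES2-high barcodes from 43.3% to 25.7%, and SK-OV-3-like barcodes stay near 50%.

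S100A4 came next, with its largest differences under the limit in every pair. Its main form ENST00000368716 held 74.4% in SK-OV-3-like (73.88 to 75.005%), 74.1% in RARRES2-high (68.2 to 79.1%) and 92.1% in FOLR1-high barcodes (91.6 to 92.5%). ENST00000354332, which carries an extra noncoding exon of 49 bases (chr1:153545470-153545518), held 24.2% in SK-OV-3-like barcodes (23.6 to 24.7%) and 7.26% in FOLR1-high barcodes (6.80 to 7.74%). In CPM this form was 8.45-fold higher in SK-OV-3-like than in FOLR1-high barcodes (7.86 to 9.08), whereas the main form was 2.05-fold higher (2.004 to 2.10). In the few RARRES2-high counts, ENST00000368715, which begins at its own noncoding exon (chr1:153544958-153545063), held 15.2% (11.01 to 19.98%) against 1.40% and 0.668% in the other lines. Those were 40.3 estimated counts, with 31 barcodes holding a whole count and at most 3 in a barcode. Without Scrublet doublets, and with a marker share of 90%, the pair of RARRES2-high and FOLR1-high differed by 23.3 points in S100A4, past the limit.

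In S100A6, ENST00000496817, whose second exon is longer at its start (174 against 159 bases, with the same coding part), held 10.1%, 8.93% and 6.44%. In S100A2 the leading ENST00000368708 held 90.2%, 91.9% and 87.5%. ENST00000368709 of S100A2 held 7.84% of the 118 counts in FOLR1-high barcodes (3.55 to 13.99%) against 0.475% and 0.0953%. S100A1 had ENST00000292169 at 66.6%, 74.9% and 76.3% on 45, 101 and 173 counts, with overlapping intervals.

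**Figure D5:**
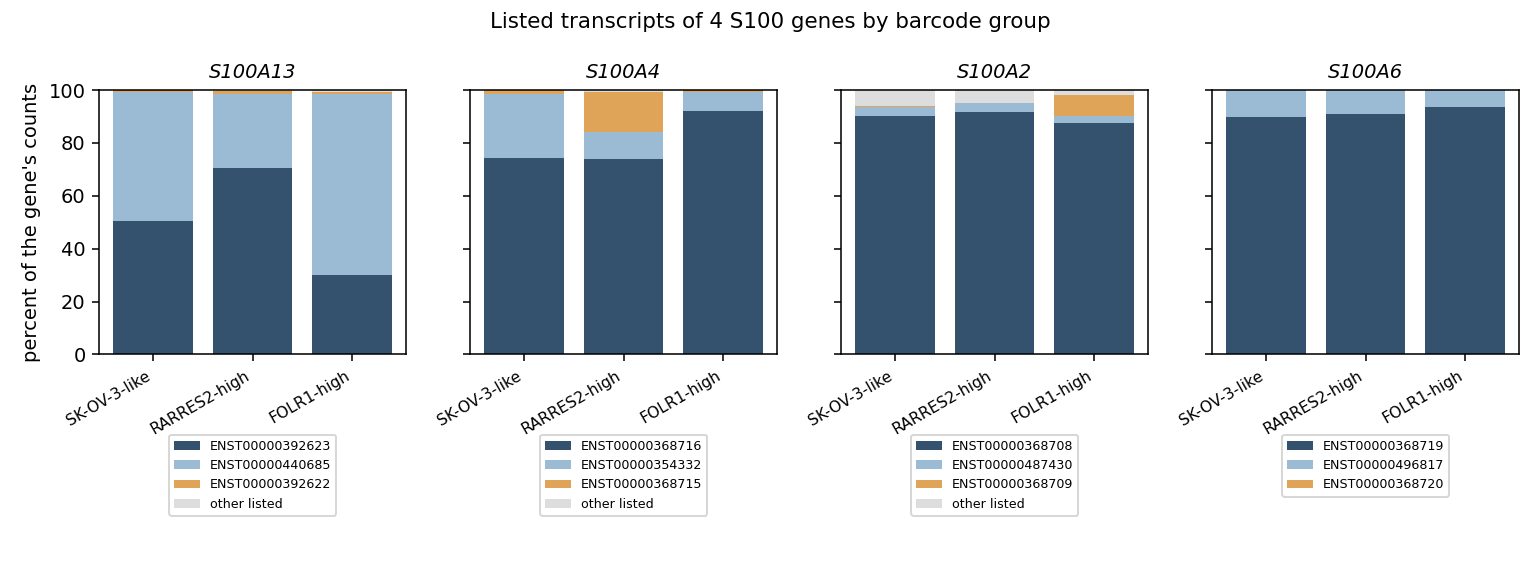
Shares of the listed transcripts of S100A13, S100A4, S100A2 and S100A6, in percent of each gene's counts, in 3 groups of barcodes. The 2 main S100A13 transcripts trade places between RARRES2-high and FOLR1-high barcodes, and ENST00000354332 of S100A4 is at 24.2% in SK-OV-3-like against 7.26% in FOLR1-high barcodes.

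Within a line, barcodes rich in mitotic genes were set against those poor in them, taking the upper and lower 25% by the summed CPM of 12 mitotic genes. This is a range of a score and no cell type. In SK-OV-3-like and FOLR1-high barcodes 324 and 217 had no mitotic count, so the 162 and 191 of the low range were taken from these ties in file order. No member passed 2-fold in SK-OV-3-like (background 5.72%) or FOLR1-high barcodes (5.25%), and 1 did in RARRES2-high barcodes (3.97%), out of 7, 8 and 8 members tested. That member was S100A4, with 46 counts in the high and 94 in the low range, a ratio of 0.323 (0.222 to 0.465). Of the 94 counts, 47 lay in a single barcode. Without it, a setting chosen after seeing the data, the counts were 46 and 47, the ratio was 0.643 (0.419 to 0.987) and S100A4 was not called. S100A6 had ratios of high to low of 0.818, 0.719 and 0.742 in the 3 lines, and the median log2 ratio of the tested members was -0.19, -0.36 and -0.48, beside 0.04, 0.13 and 0.09 over all genes tested. Median depth was higher in the high range in each line (6665 against 4755, 7864.5 against 4894.5 and 6324 against 4119 counts), and its part was not tested.

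Likeness from barcode to barcode is described by Spearman's rho of log CPM, which shares the depth of each barcode. For the members whose most like genes are named below, rho with total counts ran from -0.26 (S100A6, RARRES2-high) to 0.22 (S100A11, FOLR1-high). No median over all pairs of genes stands beside the values that follow. Over pairs of members with at least 1000 counts in the line, the median rho was 0.28 in SK-OV-3-like (21 pairs), 0.26 in RARRES2-high (15 pairs) and 0.43 in FOLR1-high barcodes (10 pairs). The genes most like S100A6 were S100A10 (0.36), S100A2 (0.35) and S100A11 (0.33) in SK-OV-3-like barcodes, FTH1 (0.54), S100A11 (0.47) and TMSB4X (0.45) in RARRES2-high barcodes, and TMSB4X (0.57), TMSB10 (0.53) and S100A11 (0.53) in FOLR1-high barcodes. FTH1 encodes the ferritin heavy chain, and the TMSB genes encode thymosins that bind actin. Those most like S100A4 were PHLDA2 (0.46), TSPAN1 (0.40, a marker of the rule) and S100A16 (0.39) in SK-OV-3-like barcodes, and KRT19 (0.50), TMSB10 (0.50) and the SPINT2 entry (0.49) in FOLR1-high barcodes. For S100A11 they were S100A16 (0.40), S100A6 (0.33) and S100A10 (0.30) in SK-OV-3-like, S100A6 (0.47), FTH1 (0.37) and TMSB10 (0.35) in RARRES2-high, and TMSB10 (0.62), S100A10 (0.57) and the FXYD2 entry (0.56) in FOLR1-high barcodes. For S100A10 they were S100A6 (0.36), S100A4 (0.31) and S100A11 (0.30), then S100A11 (0.33), MYL12B (0.24) and CFL1 (0.24), then TMSB10 (0.59), TMSB4X (0.58) and S100A11 (0.57) in the same order of lines. In the SK-OV-3-like line S100A2 and S100A4 had a rho of 0.0017, whereas S100A2 and S100A6 had 0.35.

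A total of 5 lists of related genes were read beside the members. The pairs are SK-OV-3-like to RARRES2-high, SK-OV-3-like to FOLR1-high and RARRES2-high to FOLR1-high. Over all gene entries tested, 10.1%, 12.7% and 12.5% were higher in the first line of these pairs and 7.67%, 4.95% and 6.44% in the second. The counts of calls in every list are to be read beside these shares and were not tested against them. A list of the other S100 genes also holds S100PBP, which encodes a binder of S100P. Of its 11 genes 3 had at least 50 counts, and in the 3 pairs 0, 2 and 1 of them were higher in the first line and 0 in the second. S100PBP had 24.4, 11.5 and 15.7 CPM in SK-OV-3-like, RARRES2-high and FOLR1-high barcodes and was not called in any pair. S100A3 had 25.9, 17.2 and 0.221 CPM in the same order, and S100A5 had 11.04, 5.03 and 0.221, both on 1 count in the last line. S100A7A, S100A8, S100A12, S100B and S100G had 0 counts in all lines. Of the annexins, 8 were tested, and in the 3 pairs 1, 2 and 2 were higher in the first line and 1, 0 and 1 in the second. ANXA4 had 689, 86.4 and 616 CPM and, like S100A4, was lowest in RARRES2-high barcodes. ANXA3 had 77.3, 270 and 141.

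Of the partners and receptors, 11 were tested; 1, 2 and 3 were higher in the first line of the pair and 1, 2 and 1 in the second. MYH9, the myosin chain bound by S100A4, had 184, 208 and 54.3 CPM, and EZR, the ezrin bound by S100P, had 520, 733 and 221. CAPZA2, an actin-capping subunit, had 74.1, 163 and 218 CPM. AGER, the receptor for several S100 proteins, had at most 5 counts in a line. Among calmodulins and other EF-hand genes, 23 were tested; 3, 3 and 6 were higher in the first line and 4, 0 and 1 in the second. The matrix protein gene SPARC had 99.4, 139 and 0.221 CPM, the CAPS entry 278, 13.03 and 9.52, EFHD2 24.4, 159 and 16.4, and CALU 101, 457 and 183. Of 16 tested neighbours of the S100 genes on chromosome 1 that are not in the family, 1 was higher in the first line in each pair and 0, 0 and 1 in the second. These were SNAPIN (124, 38.2 and 54.3 CPM), TPM3 (361, 663 and 279) and RAB13 (171, 155 and 342). The median log2 ratio of the neighbours was -0.09, 0.05 and 0.08 in the 3 pairs. That of the S100 members was -0.34, 1.37 and 1.72, and that of all gene entries tested 0.15, 0.29 and 0.12.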

How the data were processed

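Per the labels, 1 PromethION library of a pool of 3 lines was used; the Illumina library was not analysed here. The authors deposited estimated counts (expected counts per transcript and barcode, not normalised). The series names Isosceles; Cell Ranger 6.0.1 and GRCh38 stand in the submitters' processing notes with no role given. The aligner, the strand setting and any collapsing of molecular identifiers: not given in the sources used here. Transcript values were summed per gene entry (whole within 1e-06), rounded, summed over the barcodes of each line and scaled to CPM. Exons come from GENCODE 29. Intervals are exact Poisson, Clopper-Pearson or conditional ratio intervals (scipy 1.17.1), which cover counting error only, since cells are not replicates. With 1 library no test was made. Ratios carry a pseudocount of 10 CPM only in calls and log2 values. Doublets were kept, and removed with Scrublet (scanpy 1.11.5, expected rate 0.02) as an alternative. Correlations use log1p CPM over the barcodes of a line among genes with at least 1000 counts in it; the 3 highest are named for the 4 members with most counts. Of each list, at most 4 genes past 2-fold, by largest ratio, are named; CACYBP, AGER, S100PBP and the S100 genes at 0 were added after their values were seen. A list gene that the rule names is not reported here. The calling code was tested on simulated data. The members, marker sets and lists were chosen with earlier results of these data known.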

Additional observations from a re-analysis of the deposited data

How the results depend on the processing

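No paired analysis was possible because a platform has only 1 library. Among recomputed counts and shares, 60 stayed within 1.5 times the count or within the interval and 25 moved further. Those that stayed include a setting that took entries of several genes whole. The reported values did the same, so that setting could not move and shows nothing about stability. The number of members past 2-fold between SK-OV-3-like and RARRES2-high barcodes was 1, and became 3 with a marker share of 90%, with at least 10 marker counts (S100A1 and S100A2 added) and with a pseudocount of 1 CPM (S100A1 and S100A14 added), and 2 without mitochondrial and ribosomal protein genes and as a mean of single barcodes (S100A2 added), all added ones higher in RARRES2-high barcodes. Between SK-OV-3-like and FOLR1-high barcodes it was 7, and 3 at a 3-fold limit (S100A2, S100A6 and S100A16). The family share moved with a marker share of 90% (2.95%, 1.86% and 0.792% in SK-OV-3-like, RARRES2-high and FOLR1-high barcodes), at least 10 marker counts (2.83% and 1.84% in the first pair of lines), Scrublet doublets removed (2.95% in SK-OV-3-like), scaling without mitochondrial and ribosomal protein genes (3.44%, 2.30% and 1.21%) and means of single barcodes (1.99% in RARRES2-high and 0.789% in FOLR1-high). Members past the transcript share limit numbered 1 in each pair; with a marker share of 90% they were 0 between SK-OV-3-like and RARRES2-high and 2 between RARRES2-high and FOLR1-high barcodes, without Scrublet doublets 2 in the latter pair, and at a 10-point limit 2 in each pair, S100A4 being the one added. With the outer 10% in place of 25% of barcodes, 1 member passed 2-fold by mitotic genes in FOLR1-high barcodes, against 0, and without the RARRES2-high barcode highest in S100A4 0 passed there, against 1. Of the log2 ratios of single members none reversed among the called ones. S100P entered the counts only with no minimum of counts. Apart from stricter limits and fewer barcodes, the cause was not tested. The alternatives without the RARRES2-high barcodes highest in S100A4 were chosen after seeing the data. The rare members S100A1, S100A14 and S100P are limited by depth, with 355, 140 and 42 counts in the library.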

Other observations

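Barcodes that fell to no line also held the family. The 243 barcodes with at least 1000 counts and no dominant marker set had S100A6 at 9629 CPM (interval 9477 to 9781), S100A4 at 1816 (1751 to 1883), S100A2 at 1264 (1210 to 1321) and S100A11 at 2778 (2697 to 2860). Their S100P count was 0, which allows up to 2.30 CPM. The 333 barcodes under 1000 counts had S100A6 at 8930 CPM (8381 to 9505), S100A4 at 1395 (1183 to 1633) and S100A2 at 978 (802 to 1181).

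Within the FOLR1-high line, barcodes were split by whether CXCL14 (251 barcodes) or DEFB1 with CD44 (302 barcodes) held at least 75% of the counts of these genes, a split chosen after seeing the data. CXCL14 encodes a chemokine, DEFB1 a defensin and CD44 a receptor for hyaluronan. Of 8 members with at least 50 counts, 3 were at least 2-fold higher in the DEFB1 and CD44 barcodes, against 3.98% of the 5979 gene entries tested, and the median log2 ratio was 0.95 against 0.07. Median depth was 6147 against 4939 counts, and mitochondrial and ribosomal protein genes held 31.6% against 36.7%; their part was not tested. S100A16 had 294 CPM (271 to 319) against 58.1 (45.8 to 72.6), a ratio of 5.07 (3.99 to 6.51), and S100A10 had 1128 (1082 to 1175) against 312 (283 to 344), a ratio of 3.61 (3.25 to 4.02). S100A11, S100A4 and S100A6 had ratios of 2.11 (interval up to 2.23), 1.96 (1.87 to 2.06) and 1.92 (1.82 to 2.04). S100A1 had a plain ratio of 2.07 (1.37 to 3.21) on 97 and 31 counts and was not called once the pseudocount was added. S100A13 had a ratio of 1.34 (1.19 to 1.52), and S100A2 went the other way at 0.561 (0.356 to 0.879) on 39 and 46 counts. S100A11, which was near level between the lines, thus differed within this one.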
